A study of Mus musculus with 12 samples.

Results

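The miR-379/410 cluster is a run of miRNA genes in the distal part of the imprinted Dlk1-Dio3 domain of mouse chromosome 12. Its members were taken by name, as every row of the count table for a miRNA of that run, with any letter and arm, which gave 73 of the 1549 rows in the table. No measured value entered the choice. The RefSeq tables for GRCm38.p6 held a mature sequence for 69 of the 73 rows, from 37 miRNA genes between 109709060 and 109743795 on chromosome 12, a span of 34.7 kb. Of these genes 36 lie on the plus strand, and Mir299b lies on the minus strand. In the GENCODE M21 annotation 12 of the 37 lie within Mirg, a long non-coding RNA gene on the plus strand (109729764 to 109749460), 8 of them overlapping its exons, and the other 25 lie in no annotated host on their strand.

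Small RNA was sequenced from 5 kinds of wild-type mouse cells, all collected by sorting. Androgenetic haploid embryonic stem cells (ESC), which carry a single chromosome set from a sperm, were of 3 lines, with 2 libraries of A129-2, 3 of A129-6 and 2 of A129-17. The diploid ESC line R1 had 2 libraries, and round spermatids (RS), sorted by Hoechst staining from testes of 129Sv males, had 3. The haploid lines were propagated in serum medium with LIF, PD0325901 and CHIR99021, and neither the age of the males nor the medium of R1 is stated in the sources used. R1 stands alone for diploid ESC. The labels call the replicates independent sorts, without saying whether they came from separate cultures or animals, so the p-values below reflect only how far these particular libraries scatter, and that scatter may be technical.

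The domain is imprinted, which means that each of its genes is read from the chromosome of a single parent. Its non-coding RNAs, among them the long transcript from which the miRNAs are cut, are made from the maternal chromosome in the embryo, whereas the paternal copy, methylated at a control region, makes the protein-coding genes Dlk1, Rtl1 and Dio3. Each miRNA hairpin is cut into a duplex with a 5p and a 3p arm, and of the arms mostly one is kept by Argonaute. The cluster is best known from brain, placenta and embryo, and its activity has been used as a mark of fully reprogrammed pluripotent cells.

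The mature sequences on which the results turn are printed 5′ to 3′ with the seed, bases 2 to 8, in capitals. The first set holds the 4 most abundant members in R1.
miR-379-5p: uGGUAGACuauggaacguagg
miR-411-5p: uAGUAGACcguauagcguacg
miR-541-5p: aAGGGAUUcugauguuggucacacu
miR-409-3p: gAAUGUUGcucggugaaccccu

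The second set holds members that were far lower in the haploid lines than in R1.
miR-369-3p: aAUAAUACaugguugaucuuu
miR-154-3p: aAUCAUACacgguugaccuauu
miR-382-3p: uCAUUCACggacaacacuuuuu
miR-377-3p: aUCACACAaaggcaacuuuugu
miR-376b-3p: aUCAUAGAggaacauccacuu
miR-495-3p: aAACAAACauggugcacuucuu

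The last set holds members that were higher in the haploid lines, and the partner arms miR-382-5p and miR-377-5p of hairpins in the second set.
miR-667-3p: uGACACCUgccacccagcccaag
miR-668-3p: uGUCACUCggcucggcccacuacc
miR-485-3p: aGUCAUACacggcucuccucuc
miR-323-5p: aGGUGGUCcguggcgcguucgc
miR-543-3p: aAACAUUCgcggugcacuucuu
miR-377-5p: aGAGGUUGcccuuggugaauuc
miR-382-5p: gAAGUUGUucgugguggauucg

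Counted reads ran from 3709786 to 9176080 in the 9 ESC libraries and from 155232 to 243714 in the spermatid libraries. The ESC markers used to check the labels (6 miRNAs of the miR-290 and miR-302 clusters) summed to 60442 to 97665 CPM (counts per 1000000 counted miRNA reads) in ESC and 53.3 to 1314 in RS, and 5 spermatid markers led by the miR-34 family to 86548 to 298240 CPM in RS, against 269 and 290 in R1. RS replicate 2 was the spermatid library with 1314 CPM of ESC markers, and the miR-290 cluster took 0.678% of its counts against 0.00985% and 0.0432% in the others. Among haploid libraries, A129-6 replicate 3 correlated with both A129-17 libraries (r = 0.968 and 0.973 across miRNAs) as closely as with its own line (0.968 and 0.972), whereas A129-6 replicates 1 and 2 had r = 0.990.

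The cluster took a smaller share of counts in every haploid library than in R1, and a smaller one still in spermatids. Its 73 rows summed to 3.38% and 2.65% of counts in A129-2, to 2.92%, 3.31% and 2.83% in A129-6, and to 2.24% and 2.61% in A129-17. In R1 they summed to 6.13% and 6.38%, and in RS to 0.167% (exact Clopper-Pearson 95% interval 0.151% to 0.184%), 0.374% (0.344% to 0.405%) and 0.228% (0.206% to 0.252%). Every R1 library was above every haploid library, and every spermatid library was below all ESC. Such intervals cover counting error only, since PCR copies are not independent molecules. The miRNAs of the same domain that lie outside the cluster, around anti-Rtl1, did not separate R1 from the haploid lines. Their share was 2.33% and 2.64% in R1, inside the span of 2.21% to 5.42% seen among haploid libraries. In RS it was 0.0197%, 0.0837% and 0.0282%, below all ESC as for the cluster. The ratio of cluster counts to those of the other domain miRNAs cannot be moved by any scaling of libraries. It ran from 0.623 to 1.28 in the 7 haploid libraries and was 2.63 and 2.42 in R1, with no overlap. In RS it ran from 4.46 to 8.48. The miR-290 cluster, which leads ESC libraries, held 49.1% and 50.2% of the reads of R1 but 64.1% to 77.1% of those of haploid libraries, which moves every share of the total. No test was made of these sums.

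**Figure D1:**
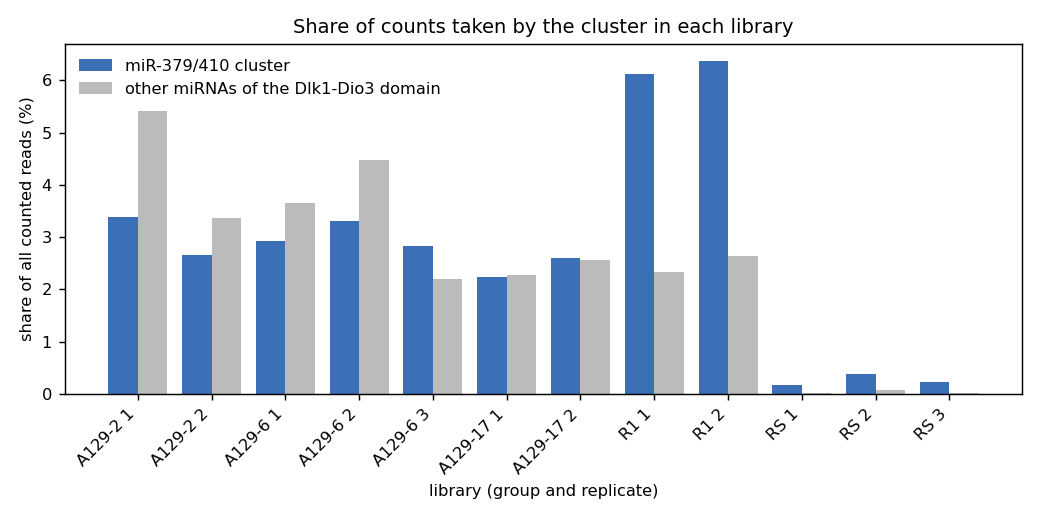
Share of all counted reads (%) taken by the miR-379/410 cluster (blue) and by the other miRNAs of the Dlk1-Dio3 domain (grey) in each of the 12 libraries; each bar is 1 library. The cluster stands at 6.13% and 6.38% in R1 and at 2.24% to 3.38% in the haploid lines, while the grey bars of R1 lie within the range of the haploid lines.

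Whether haploid ESC with a paternal genome express the members differently from diploid ESC was asked first. Levels below are normalised CPM, that is, CPM of a TMM-scaled library (TMM is edgeR's correction for a few miRNAs that take many reads), from the fit of the 9 ESC libraries. Mature miRNAs of the cluster are 18 to 25 bases long, so no length scaling was applied, but miRNAs also differ in how readily adapters join to them, and levels of different miRNAs are only roughly comparable. Of the 73 members 61 passed the filter on low counts. Of these 4 did so through R1 alone (miR-376a-3p, miR-377-3p, miR-495-5p and miR-541-3p) and 1 through the haploid lines alone (miR-668-5p). The 12 that did not pass had at most 31 counts in all ESC libraries together. Among the 61, 40 were lower in the mean of the haploid lines and 9 higher, and 12 did not pass (edgeR quasi-likelihood test, adjusted p under 0.05). Over all 757 miRNAs tested, 35.3% were lower and 35.3% higher (70.5% in all), against 65.6% and 14.8% of the members. The median log2 difference was -2.22 over the members and 0.33 over all miRNAs. Members that reached the filter's level in 1 kind of ESC alone had to differ. A restriction to miRNAs that reached it in both kinds, chosen after the data were seen, left 55 members with 35 lower (63.6%) and 8 higher (14.5%), where 40.2% and 35% of 537 miRNAs were so called. In this set the median log2 difference was -1.66 over the members and -0.23 over all miRNAs. For 38 members every haploid library lay below both R1 libraries, and for 9 every haploid library lay above them, where 35.1% and 34.7% of all miRNAs did so. In bulk libraries fewer cells that make a miRNA and less of it per cell cannot be told apart.

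**Figure D2:**
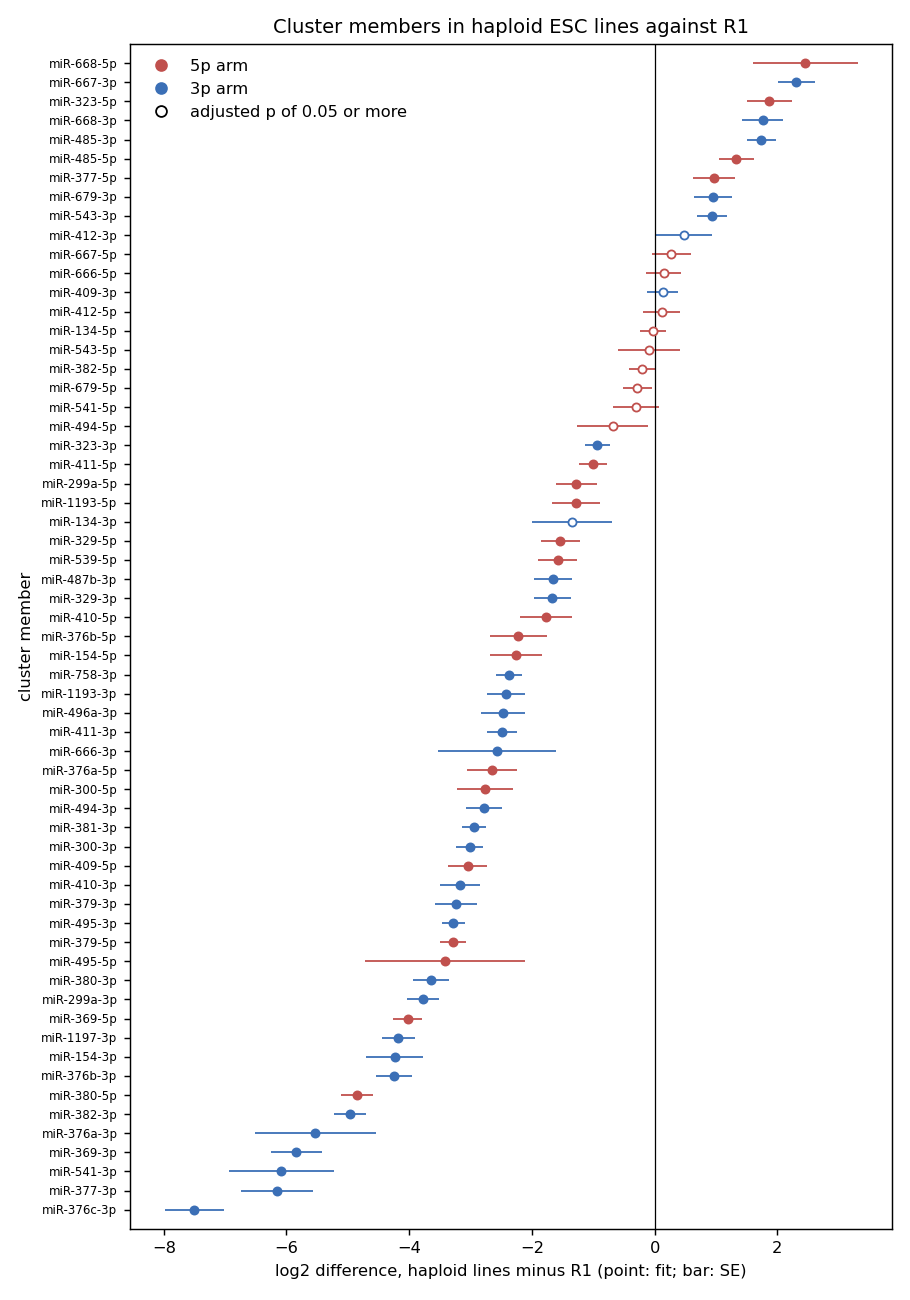
Log2 difference of each of the 61 tested members, haploid lines minus R1, from the edgeR fit, with the standard error (SE) as bars; red points are 5p arms, blue points 3p arms, and open points have an adjusted p of 0.05 or more. Values run from -7.51 for miR-376c-3p to 2.46 for miR-668-5p, and 40 members lie below 0 with filled points against 9 above it. miR-668-5p passed the filter through the haploid lines alone.

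Without A129-17 and A129-6 replicate 3, a choice made after the data were seen, 40 were lower and 9 higher as well. Over all 723 miRNAs of that fit 269 were lower and 284 higher. With RS added to the fit, where the median of all miRNAs shifted by 0.85, the split was 29 lower and 14 higher of 60. Over all 806 miRNAs it was then 176 lower and 342 higher. With a correction for the GC content of the miRNA it was 35 lower and 3 higher of 58, against 215 and 177 of all 609 miRNAs. Without R1 replicate 1 or replicate 2, which leaves 1 R1 library, the members' median log2 difference was -2.20 and -1.94. The medians of all miRNAs were then 0.40 and 0.45.

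The largest decreases with at least 10 CPM were in 3p arms, with 1 exception. miR-376c-3p, of a family known for editing of its precursors, had 224 and 189 normalised CPM in R1 and between 0 and 2.98 in the haploid libraries, a log2 difference of -7.51 (SE 0.48, adjusted p = 2.92e-09). miR-376b-3p had 208 and 223 in R1 and 4.66 to 20.1 across the haploid libraries, which is a log2 difference of -4.25 (SE 0.29). For both, every haploid library was far below R1. miR-369-3p, known for binding AU-rich elements, had 324 and 309 in R1. It reached 6.25 and 14.6 for A129-2, 8.07, 8.44 and 1.37 for A129-6 and 2.49 and 2.72 for A129-17, a log2 difference of -5.84 (SE 0.41, adjusted p = 8.01e-09). The 3 lowest libraries were those of A129-17 and A129-6 replicate 3, and without them the log2 difference was -5.11. miR-382-3p fell from 738 and 764 in R1 to 11.3 to 38.6, a log2 difference of -4.96 (SE 0.26, adjusted p = 3.96e-10). miR-377-3p, at 16.3 and 14.2 in R1, had 0 counts in both A129-17 libraries and at most 0.979 CPM elsewhere. Its pooled counts, 275 in R1 and 25 in the haploid lines, gave a scaled ratio of 27.1 (95% Poisson interval 18.0 to 42.6). The interval covers counting error only, not scatter between libraries or lines. The fitted log2 difference, with A129-17 at 0 counts, was -6.15 (SE 0.58). miR-154-3p (log2 -4.24, SE 0.47) and miR-1197-3p (-4.18, SE 0.27) complete the 3p arms, and each was lower in 7 of 7 haploid libraries than in R1. The exception was miR-380-5p, which fell from 227 and 242 in R1 to 4.86 to 12.7 (log2 -4.85, SE 0.26, adjusted p = 4.60e-10). After the GC correction, for which miR-376c-3p had no value, these log2 differences ran from -4.49 for miR-377-3p to -2.06 for miR-369-3p, and all 7 were still called. The call of miR-377-3p is no independent sign of a difference, since it passed the filter through R1 alone.

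The members with the most reads in R1 split between large differences, smaller ones and differences that were not called. miR-379-5p, the first miRNA of the cluster and its leader in R1, stood at 14331 and 15310 normalised CPM there. It had 2050 and 1384 for A129-2, 1559, 1829 and 1371 for A129-6 and 1127 and 1431 for A129-17. The level in R1 was thus 9.78-fold higher (log2 -3.29, SE 0.21, adjusted p = 2.85e-09), with no overlap. miR-300-3p fell from 3385 and 3394 to 258 to 670 (log2 -3.01, SE 0.22), miR-381-3p from 2334 and 2181 to a level 7.68-fold lower (-2.94, SE 0.20) and miR-495-3p from 2302 and 2073 to 167 to 289 (-3.28, SE 0.19). miR-411-5p, the neighbour of miR-379-5p, was at 7839 and 7942 in R1 and 2977 to 5012 across the haploid libraries, 2.00-fold lower (SE 0.23 on the log2 scale, adjusted p = 0.00127). This call was lost after the GC correction (log2 -0.40, adjusted p = 0.167) and when RS joined the fit (-0.16, adjusted p = 0.784). miR-323-3p was also lower (log2 -0.93, SE 0.21, adjusted p = 0.000908), which ended when RS joined the fit (-0.08, adjusted p = 0.891).

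Several of the most abundant members were not called. miR-409-3p had 5468 and 5786 normalised CPM in R1 and 4799 to 8441 across the haploid libraries (log2 0.14, SE 0.25, adjusted p = 0.634). miR-541-5p had 8923 and 7106 in R1. It varied widely within lines, with 2726 and 7373 for A129-2, 6013, 4785 and 13410 for A129-6 and 7472 and 5897 for A129-17 (log2 -0.31, SE 0.37, adjusted p = 0.469). miR-134-5p, which limits dendritic spine growth in neurons, had 1399 and 1507 in R1 and 1136 to 1756 across the haploid libraries (log2 -0.02, SE 0.21, adjusted p = 0.938). miR-382-5p had 920 and 1013 in R1 and 708 to 989 across the haploid libraries (-0.21, SE 0.21, adjusted p = 0.386). For these 4 the groups overlapped, and the sign turned with other scalings. miR-134-5p was called lower after the GC correction (log2 -1.21, adjusted p = 6.24e-05), whereas miR-409-3p was called higher when RS joined the fit (0.99, adjusted p = 0.0426) and stood lower, not called, after the GC correction (-0.53, adjusted p = 0.0604).

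The 9 members called higher belonged to 7 hairpins. miR-667-3p had 26.8 and 27.0 normalised CPM in R1 and 108 to 156 across the haploid libraries, a 4.96-fold difference (log2 2.31, SE 0.30, adjusted p = 5.67e-06). miR-485-3p, whose hairpin is known for a role at synapses, had 327 and 319 in R1 and 1015 to 1245 across the haploid libraries (log2 1.74, SE 0.23, adjusted p = 9.04e-06). Its partner miR-485-5p had 156 and 169 against 284 to 629 (log2 1.33, SE 0.29). miR-543-3p, with 1485 and 1547 in R1, had 2100 and 1880 for A129-2, 2658, 2967 and 4366 for A129-6 and 3691 and 3746 for A129-17 (log2 0.94, SE 0.25, adjusted p = 0.00342). Every haploid library exceeded R1 for these 4 members. miR-323-5p (log2 1.87, SE 0.37), miR-668-3p (1.76, SE 0.34), miR-377-5p (0.97, SE 0.34) and miR-679-3p (0.96, SE 0.31) were also higher, as was miR-668-5p, at no more than 3.71 CPM in any library. The last passed the filter through the haploid lines alone and had to be higher. After the GC correction, which had no value for miR-485-5p, miR-543-3p, miR-485-3p and miR-377-5p kept their call. miR-667-3p (log2 0.51, adjusted p = 0.0725) and miR-679-3p (0.30, adjusted p = 0.376) lost it, and miR-323-5p (-0.57) and miR-668-3p (-0.16) turned in sign. Without R1 replicate 1, miR-377-5p, miR-679-3p and miR-543-3p lost it as well (adjusted p = 0.155, 0.164 and 0.0700), and without R1 replicate 2 (0.153, 0.0987 and 0.0559).

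**Figure D3:**
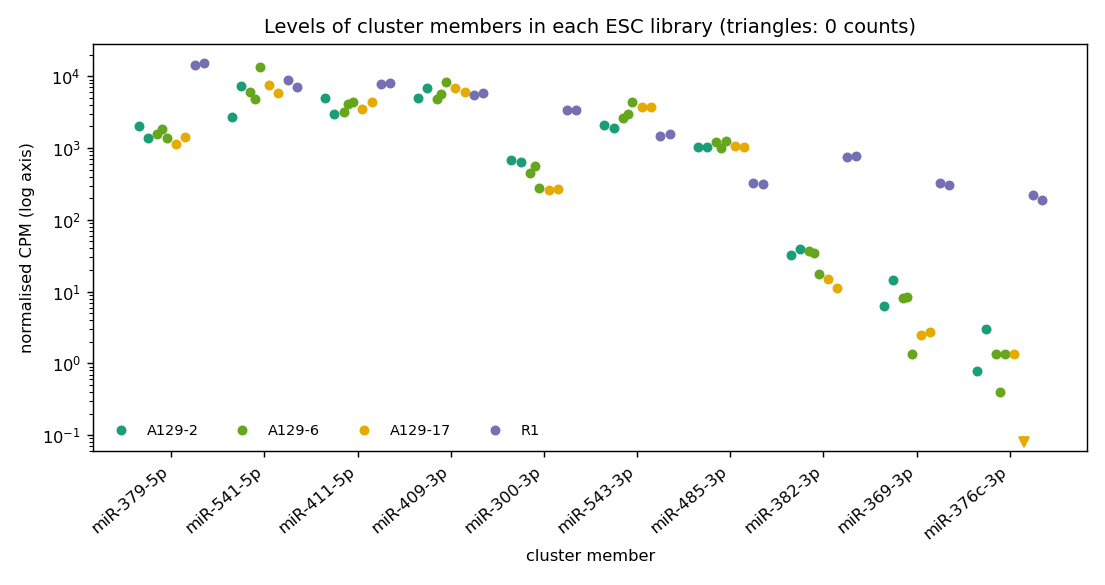
Normalised CPM (log axis) of 10 cluster members in each of the 9 ESC libraries; a point is a library, coloured by line, and a triangle marks 0 counts. miR-379-5p stands near 14331 to 15310 in R1 and at 1127 to 2050 in the haploid lines, miR-409-3p overlaps between the groups, and miR-376c-3p is at 2.98 or below in every haploid library.

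The make-up of the cluster changed accordingly, and this too does not depend on scaling. In R1 miR-379-5p led with 25.6% ± 1.36 of all cluster counts (SD, n = 2), followed by miR-541-5p with 13.8% ± 2.13, miR-411-5p with 13.6% ± 0.214 and miR-409-3p with 9.72% ± 0.451. In the haploid lines miR-379-5p took 6.69% ± 2.39 in A129-2 (n = 2), 5.31% ± 1.68 in A129-6 (n = 3) and 4.43% ± 0.862 in A129-17 (n = 2). There miR-541-5p and miR-409-3p led all libraries but A129-2 replicate 1, where miR-411-5p was first with 20.5%. miR-409-3p took 22.2% ± 3.05, 19.9% ± 1.38 and 22.1% ± 1.13 in the 3 lines, and miR-543-3p 7.69% ± 1.27, 10.5% ± 0.339 and 12.8% ± 0.483 against 2.62% ± 0.0920 in R1.

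Each line was then set beside R1, with the same R1 libraries in all 3 contrasts. A129-2 had 35 members lower and 6 higher, where 28.8% and 31% of all miRNAs were so called (59.8% in all). A129-6 had 39 lower and 9 higher (background 32.1% and 35%, 67.1% in all), or 38 and 9 without replicate 3 (31% and 34.7%). A129-17 had 40 lower and 8 higher (31.6% and 34.6%, 66.2% in all). The median log2 difference of the members was -1.76, -2.01 and -2.56 in that order, where the medians over all miRNAs were 0.30, 0.34 and 0.20. miR-379-5p stood at -3.11, -3.22 and -3.53 in the 3 lines (SE 0.31, 0.27 and 0.32), and miR-382-3p at -4.40, -4.65 and -5.84 (SE 0.40, 0.35 and 0.44). miR-300-3p stood at -2.38, -2.99 and -3.68 (SE 0.33, 0.29 and 0.35). miR-485-3p stood at 1.68, 1.84 and 1.70. All of these were called in every line (edgeR, adjusted p of 6.92e-05 or less). miR-543-3p was called in A129-6 (log2 1.14, adjusted p = 0.00202) and A129-17 (1.29, adjusted p = 0.00131), and stood at 0.39 in A129-2 (adjusted p = 0.250).

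Between the haploid lines no member passed edgeR's F-test over the 3 lines, where 3.83% of all miRNAs did. At an unadjusted p under 0.05 there were 19 of 61 members (31.1%, against 23% of all miRNAs), led by miR-300-3p (adjusted p = 0.0659), miR-382-3p (0.0765), miR-412-5p (0.0976), miR-379-3p (0.0976) and miR-380-5p (0.105). DESeq2's likelihood-ratio test called 7 of 59 members (11.9%) and 11.5% of all miRNAs. With no filter edgeR called 9 of 73 (12.3%) and 5.48% of all. Without A129-6 replicate 3 it called 10 of 61 (16.4%) and 10.7% of all, and without A129-17 replicate 2 it called 2 (3.28%) and 5.26% of all. miR-300-3p had 670 and 635 normalised CPM in A129-2. It had 444 and 559 in A129-6 replicates 1 and 2 but 279 in replicate 3, near the 258 and 273 of A129-17. In pairs of lines edgeR called 0 members each, where 2.38% of all miRNAs were called for A129-6 against A129-2 (1.85% higher and 0.528% lower) and 0% in each of the pairs with A129-17. At an unadjusted p under 0.05 there were 5 of 61 members (8.2%, against 13.6% of all miRNAs) for A129-6 against A129-2, 24 (39.3%, against 23.9%) for A129-17 against A129-2 and 20 (32.8%, against 16.2%) for A129-17 against A129-6. DESeq2 called 0 of 52 members in the first pair (7.85% of all miRNAs), 10 of 61 in the second (8.19%) and 3 of 57 in the last (3.87%). Without A129-6 replicate 3, a choice made after the data were seen, the edgeR counts were 0 in the first pair (1.74% of all miRNAs), 12 of 61 (19.7%, against 9.35% of all) for A129-17 against A129-2 and 7 of 61 (11.5%, against 5.34%) for A129-17 against A129-6. Without A129-2 replicate 1 the second pair gave 2, and without A129-17 replicate 2 the last gave 1. The shares of all miRNAs in these runs are not given, so the counts cannot be set against a background.

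The arms of single hairpins gave a comparison that does not depend on library scaling, since both arms are read in the same library. Arm use was tested with edgeR's diffSpliceDGE over the 213 hairpins with both arms kept, of which 62.4% were called. Of 27 cluster hairpins 19 were called (70.4%), close to that background. Of the 21 with both arms above the filter's level in both kinds of ESC 15 were called (71.4%, against 66.9% of 145 such hairpins), and those of miR-376a, miR-377, miR-541 and miR-666 were called but are not among these. In 14 of the 19 the 5p arm gained over the 3p arm in the haploid lines, and in 5 the 3p arm gained. The 14 include the hairpins of miR-376a, miR-377 and miR-541, whose 3p arms passed the filter through R1 alone, which favoured this direction. They also include miR-666, whose 3p arm reached the filter's level in neither kind of ESC. The split over all hairpins called is not given. The hairpin of miR-382 gave 56.3% ± 1.09 of its counts as 5p in R1 (SD, n = 2). This share rose to 95.6% ± 1.07 (n = 2) for A129-2, to 96.9% ± 1.18 (n = 3) for A129-6 and to 98.3% ± 0.567 (n = 2) for A129-17, a 27.0-fold change of the arm ratio (adjusted p = 3.13e-12). Of its arms miR-382-3p was lower and miR-382-5p was not called. The hairpin of miR-377 gave 46.8% ± 2.56 as 5p in R1 (SD, n = 2) and 95.8% to 100% in the haploid libraries (adjusted p = 2.68e-10). Its 3p arm had 131 and 144 counts in R1 and at most 7 in any haploid library, so it entered the test through R1 alone and its p is no independent sign of a difference. The arms of this hairpin differed in opposite directions, with miR-377-3p lower and miR-377-5p higher.

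Others moved the same way or the reverse way. The 5p share of miR-323 rose from 0.450% and 0.458% in R1 to between 1.88% and 5.52% in haploid cells (adjusted p = 1.25e-06). That of miR-409 fell from 6.22% and 7.59% to 0.370% to 1.53% (adjusted p = 8.15e-09). Of its arms miR-409-5p was lower (log2 -3.05, SE 0.31) and miR-409-3p was not called. The arms of miR-541 also differed in change (adjusted p = 3.67e-06), but miR-541-3p was at 14 counts in all haploid libraries against 158 in R1, and it too entered through R1 alone. In 5 called hairpins the more abundant arm was not the same in R1 and in the mean of the haploid lines. They were miR-377, miR-667 (74.6% ± 0.954 as 5p in R1, 41.4% ± 0.545 over the 3 line means), miR-369, miR-154 and miR-380, and for the last the libraries of the groups overlapped. The arm use of miR-379 was not called, with 99.2% as 5p in both R1 libraries and 98.6% to 99.7% in the haploid ones (adjusted p = 0.917), and both of its arms were lower. The count of called cluster hairpins was 13 with the stricter filter, and it fell without either R1 replicate, which leaves 1 R1 library. The share of all hairpins called in these runs is not given, so the falls cannot be set against a background.

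**Figure D4:**
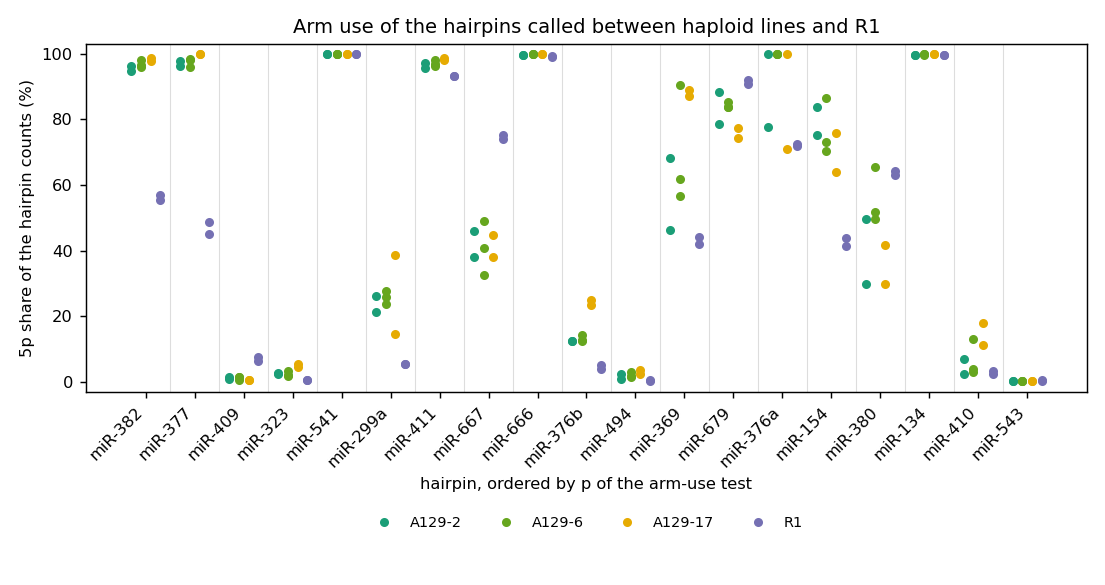
Share of each hairpin's counts that came from the 5p arm (%), for the 19 cluster hairpins called for arm use between the haploid lines and R1, ordered by p; a point is a library, coloured by line. For miR-382 the R1 points stand at 55.5% and 57.0% and the haploid points at 94.8% to 98.7%, and for miR-667 R1 stands above every haploid library.

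The differences of the members went with the base composition of the mature miRNA. Across the 58 tested members with a sequence, Spearman's rho of the log2 difference and GC content was 0.722 and Pearson's r 0.701, and across all 609 tested miRNAs with a sequence rho was 0.535. These points share their libraries and are given as a description. The 38 members called lower had a median GC content of 44.2% (23.8% to 68.2%), the 8 called higher 56.4% (45.5% to 72.7%) and the 12 not called 54.5%. Of 19 members with 36.4% to 44% GC 18 were lower and none higher, with a median log2 difference of -3.23 (-2.43 over 139 miRNAs of all loci in that range). Among these 19 were miR-376a-3p, miR-377-3p and miR-495-5p, which passed the filter through R1 alone and had to be lower. Of 21 with 45.5% to 50% GC 16 were lower and 2 higher, with a median of -2.38 (-0.86 over 165 miRNAs). Of 17 with 52.4% to 72.7% GC 3 were lower and 6 higher, with a median of 0.15 (1.61 over 266 miRNAs). miR-541-3p, in the middle range, also passed the filter through R1 alone, and miR-668-5p, in the last range, through the haploid lines alone. All of them enter the correlations, medians and arm counts of this paragraph. In each range the members' median was below that of all miRNAs. The share of all miRNAs called within each range is not given, and over all 757 tested 35.3% were lower and 35.3% higher. The 3p arms, with a median GC of 45.5%, were lower in 25 of 33 and higher in 5, and the 5p arms, with a median of 47.8%, in 15 and 4 of 28. The correlation was alike in 5p (rho 0.728) and 3p arms (0.729). Among the 19 hairpins called for arm use the arm that gained had the higher GC content in 9, the lower in 8 and an equal one in 2. The part of GC content in these differences was not tested beyond the correction given above, after which the members' median was -1.20 and that of all miRNAs -0.08.

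Position along the cluster was compared in the same way. In the proximal stretch, before 14.4 kb from the start of the miR-379 hairpin, 19 of 28 members were lower and 4 higher. All 8 members from 14.4 to 19.1 kb (arms of miR-376a, miR-376b, miR-300, miR-381 and miR-539) were lower, with a median log2 difference of -2.85 and the lowest median GC content, 40.9%. In the distal stretch, from 24.7 to 34.7 kb, 11 of 22 were lower and 4 higher. These counts include members that passed the filter through R1 alone and had to be lower. They are miR-495-5p in the proximal stretch, miR-376a-3p in the central run and miR-377-3p and miR-541-3p in the distal stretch. miR-668-5p, in the distal stretch, passed through the haploid lines alone. Over all 757 miRNAs tested 35.3% were lower and 35.3% higher. The medians of the outer stretches were -1.60 and -1.56. Members called higher lay on both sides of the central run, as with miR-323-5p, miR-543-3p and miR-667-3p before it and miR-668-3p, miR-485-3p and miR-377-5p after it.

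**Figure D5:**
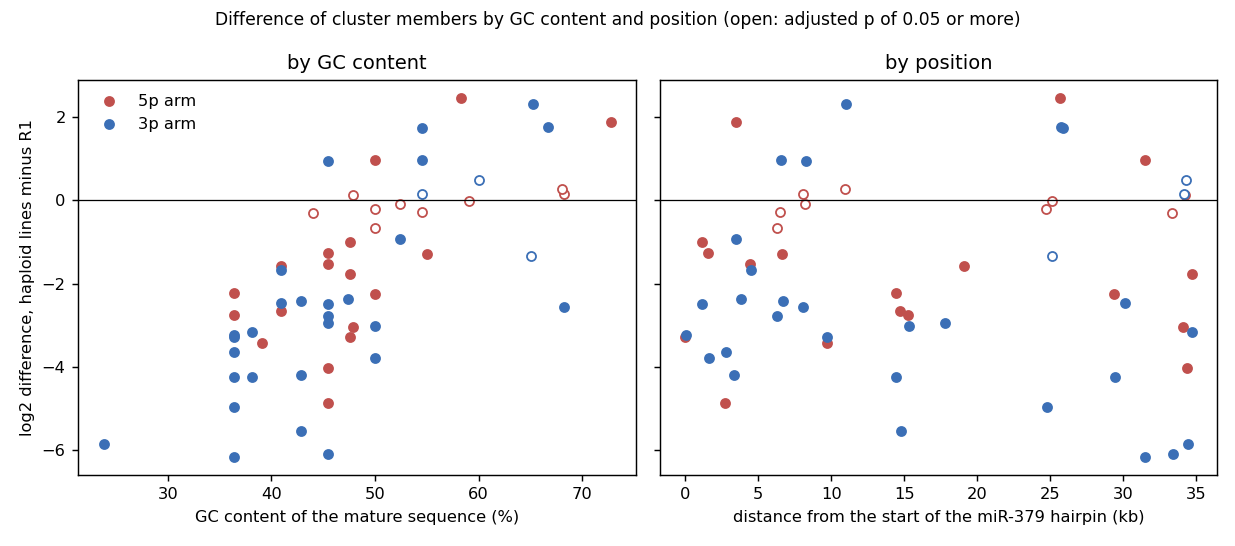
Log2 difference of the 58 tested members with a sequence, haploid lines minus R1, against the GC content of the mature sequence (left, %) and against distance from the start of the miR-379 hairpin (right, kb); red points are 5p arms, blue points 3p arms, and open points have an adjusted p of 0.05 or more. On the left the points climb with GC content (rho 0.722), and on the right all 8 points between 14.4 and 19.1 kb lie below 0. miR-376a-3p, miR-377-3p, miR-495-5p and miR-541-3p passed the filter through R1 alone.

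Members with like sequences did not always move alike. miR-495-3p and miR-543-3p, which differ by 4 single-base edits and share the last bases of the sequences printed above, differed in opposite directions, at a log2 difference of -3.28 and 0.94. Their seeds are not the same. miR-300-3p and miR-381-3p are 3 edits apart and stood at -3.01 and -2.94. miR-379-3p and miR-411-3p share a seed and are 2 edits apart, and were both lower (-3.23 and -2.49). miR-379-5p and miR-1193-5p share the seed GGUAGAC and were both lower (-3.29 and -1.28). Reads of such near copies, also of miR-376a-3p and miR-376b-3p (3 edits), are uncertain in their assignment, as the treatment of reads with several matches was not given. Both arms of miR-299b, which is antisense to miR-299a, had identical counts in every library and are uncertain.

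Round spermatids were compared with both kinds of ESC in a fit of all 12 libraries. Of the 73 members 34 had no count in any spermatid library, 18 had 1 to 3 counts in the 3 libraries together and 13 had at least 10. A count of 0 over the group allowed up to 5.30 CPM of total counts. miR-409-3p was the most abundant member in spermatids, with 249, 205 and 196 counts and 1173 ± 149 CPM of total counts (SD, n = 3). miR-541-5p had 74, 107 and 101 counts, miR-411-5p 25, 72 and 22, miR-379-5p 19, 69 and 20, and miR-381-3p 2, 14 and 7. On the scale of total counts replicate 2, which also carried the most ESC markers, was the highest library for all 5. It stood at 444 CPM of miR-379-5p against 78.0 and 120 in the others, and at 464 of miR-411-5p, where neither of the others passed 132. A further 14 members had counts in that library alone. The part of this library's ESC miRNAs in these values was not tested.

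Against RS, 52 of 60 tested members were higher in the haploid lines and 0 lower (44.5% and 20.8% of all miRNAs, 65.4% in all), and 54 were higher in R1 and 0 lower (33.6% and 19.4%, 53% in all), by edgeR. Of the 60, 22 had no count in any spermatid library. They passed the filter through ESC alone and could not be called lower. A count without them is not given. At an unadjusted p under 0.05 the number lower was 0 too, and by DESeq2 it was 0, while 1 or 2 were lower under some other scalings and filters. Both comparisons use the same spermatid libraries. Without RS replicate 2 the counts were 48 and 57 higher, and the shares of all miRNAs in that run are not given. The fitted median log2 difference was 5.91 for the haploid lines and 7.25 for R1, and 4.28 and 5.06 when members with no spermatid count were placed at the floor of 3 counts over the group (2.43 normalised CPM), against 2.79 and 2.04 over all miRNAs. miR-409-3p differed least among the 5 leading spermatid members, at a log2 difference of 4.13 in the haploid lines (SE 0.43) and 3.14 in R1 (SE 0.46). miR-379-5p stood at 4.67 (SE 0.50) and 7.11 (SE 0.59), and miR-411-5p at 5.91 (SE 0.53) and 6.07 (SE 0.56), with every ESC library above every spermatid library on the scale of total counts. Without RS replicate 2 these differences were larger, at 5.75 (SE 0.44) and 9.04 (SE 0.52) for miR-379-5p and at 6.87 (SE 0.47) and 7.88 (SE 0.50) for miR-411-5p. Those of miR-409-3p were then 4.29 and 4.15. miR-369-3p, one of the members far lower in the haploid lines than in R1, had 6, 5 and 0 counts in spermatids and stood at -0.09 against them in the haploid lines (0.44 without RS replicate 2, adjusted p = 0.653). miR-667-3p had no count in spermatids and was at least 81.7-fold higher in the haploid lines and 9.12-fold higher in R1.

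Other miRNAs of the domain, 31 rows around anti-Rtl1 that all passed the filter, were lower in 15 cases and higher in 11 in the haploid lines against R1, with a median log2 difference of -0.50. Over all miRNAs tested 35.3% were lower and 35.3% higher, so the count higher was near the background. Among them both arms of miR-136 were lower (log2 -6.08 for 3p and -5.64 for 5p), and miR-433-3p (2.35) and miR-370-3p (2.17) were higher while miR-433-5p (-2.75) and miR-370-5p (-1.58) were lower. miR-136-5p, miR-337-3p and miR-540-5p were at 1.37 normalised CPM or less in every haploid library. Rows that passed the filter through R1 alone had to be lower, and the counts without such rows are not given. miR-3071-5p had nearly the levels of miR-136-3p (means of 27.0 and 27.5 in the haploid lines, 1795 and 1833 in R1), so the 2 rows may not be separate signals. Against RS 23 of 31 were higher in the haploid lines and 26 in R1, where 44.5% and 33.6% of all miRNAs were so called.

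Markers of other cells that express the domain were read beside these results. The background for their calls is the 35.3% lower and 35.3% higher of all 757 miRNAs tested. Of 11 tested mesenchymal or fibroblast markers 4 were lower and 4 higher in the haploid lines, and their sum was 7476 to 33343 CPM of total counts in the haploid libraries, 20461 to 22748 in R1 and 30400 to 74846 in RS, with none at 0 in any group. Of 5 neural markers 4 were lower and the other was not called, with sums of 503 to 1051 CPM in the haploid libraries, 3862 and 3898 in R1 and 4764 to 13870 in RS, where miR-219a-5p was at 0. Of 6 tested blood and endothelial markers 4 were lower and 2 higher, with sums of 67.3 to 215, 522 to 535 and 1546 to 14833 CPM. Of the 6 ESC markers 4 were lower and 2 were not called. The neural and blood marker sums thus lay lower in every haploid library than in R1, as the cluster did, and their part in the result was not tested. The sum of these 6 ESC markers lay lower too, whereas the whole miR-290 cluster took a larger share in every haploid library.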

How the data were processed

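Small RNA libraries of 12 samples in 5 groups were analysed from 1 table. The authors deposited raw counts of reads per miRNA, not normalised, and all 12 columns were matched to samples by name. The submitters' processing notes name Bowtie 0.12.9 and DESeq2. Genome build, miRBase release, strand use and the treatment of multiply matching reads: not given in the sources used here.

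Counts were fitted in R 4.3.3 with edgeR 4.0.16 (limma 3.58.1): filterByExpr by group (minimum count 10, total 15), TMM scaling, quasi-likelihood F-tests on group means over all miRNAs, Benjamini-Hochberg adjustment, threshold 0.05. The 9 ESC libraries were fitted together, and all 12 for comparisons with RS. The haploid contrast weighs the 3 lines equally, and SE is the fitted log2 difference over the root of its F. Arm use was tested with diffSpliceDGE. The scripts were tested on simulated data. GC correction used a loess per library (span 0.75) on RefSeq mature sequences. DESeq2 1.42.0 served as an alternative.

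The members, lists and tests were chosen with earlier results of these data known. Full values are given for the 8 largest called decreases and increases with at least 10 CPM, the 8 most abundant members in R1 and in the haploid lines, the 5 most abundant in RS, the 5 smallest p between lines and the 5 hairpins with the smallest p for arm use. Other miRNAs named beside them were chosen after their values were seen.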

Additional observations from a re-analysis of the deposited data

How the results depend on the processing

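Of the counts of members called, those lower in the haploid lines than R1 stayed within 29 to 42 of the tested members in every alternative run, against 40. Scaling moved the median of all miRNAs by -0.24 (RLE), 0.31 (upper-quartile), -0.12 (total counts) and -0.11 (miR-290 cluster left out), while the members' median minus that of all miRNAs stayed between -2.56 and -2.53 in these. Adding RS to the fit gave -2.10, and GC correction -1.12. All of these differences include members that passed the filter through R1 alone. The members called higher numbered 3 after GC correction, with or without the replicate block, and 14 with all 12 libraries. Over all miRNAs it was 177 of 609 after GC correction, 184 of 609 with the block too and 342 of 806 with all 12 libraries. Per line, GC correction left 3 in A129-2, 5 in A129-6 and 4 in A129-17 (3, 4 and 5 with the block), and all 12 libraries gave 10 in A129-2. The shares of all miRNAs in these runs per line are not given. Leaving out 1 library each gave 5 to 9 for the haploid lines, 3 to 7 for A129-2, 0 to 10 members between lines and 9 to 19 hairpins for arm use. In pairs of lines leaving out 1 library each, chosen after seeing the data, gave 0 to 12 for A129-17 against A129-2 and 0 to 7 for A129-17 against A129-6, and DESeq2 10 and 3, against 0. Members called between lines numbered 9 with no filter, 7 with DESeq2, 8 with the replicate block and 8 with GC correction and the block. Of all miRNAs 5.48% were called with no filter and 11.5% with DESeq2, and the shares with the block are not given. Nor are they given here for the ranges over runs that leave out a library. Members lower in the haploid lines than RS numbered 2 with upper-quartile scaling and 1 with total counts, no filter or the stricter filter, and 1 was lower in R1 than RS with the stricter filter.

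Replicate numbers were not taken to pair the samples: deviations of same-numbered libraries correlated above 0.1 in 3 of 21 pairs (-0.405 to 0.203). For A129-2 with R1 both numbers gave -0.405, since deviations in a group of only a pair of libraries mirror each other. The 21 pairs are thus not separate checks and cannot settle whether the numbers mark a shared batch. With the replicate block 39 members were lower and 9 higher in the haploid lines, where 265 and 269 of all 757 miRNAs were so called. With the block 20 hairpins of the cluster were called for arm use, and the share of all hairpins is not given.

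For the named members, 569 of the single values kept direction and call, 20 lost the call, 4 gained it and 32 changed sign against R1. Of the sign changes 1 passed the test in the new direction, miR-409-3p with GC correction and the replicate block (adjusted p = 0.00769). Signs changed with RLE scaling for miR-409-3p (-0.11) and miR-412-5p (-0.12), the same values with DESeq2, with total counts (-0.026 and -0.0595), when leaving out 1 library each (down to -0.0121 and -0.059, up to 0.2368 and 0.2302), and without A129-17 and A129-6 replicate 3, an alternative chosen after seeing the data (-0.056 and -0.40). miR-412-5p also changed with the replicate block (-0.0135). Upper-quartile scaling turned miR-541-5p (0.0238), miR-134-5p (0.30) and miR-382-5p (0.11), the stricter filter the same (0.0118, 0.30 and 0.11), and all 12 libraries too (0.57, 0.82 and 0.64). miR-134-5p ran from -0.106 to 0.0384 when leaving out 1 library each. GC correction turned miR-323-5p (-0.57), miR-668-3p (-0.16), miR-541-5p (0.80) and miR-409-3p (-0.53), and with the block they stood at -0.62, -0.15, 0.57 and -0.62. The cause was not tested. Against RS, miR-369-3p turned from -0.09 to 0.44 in the haploid lines without RS replicate 2. Depth limits the spermatid values, where 3 counts over the group is the floor.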
